A study of Mus musculus with 6 samples.

Results

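The 78 genes described here were chosen by symbol, and all but Mrps36 encode proteins of the mitochondrial ribosome. Of the 16759 genes in the deposited table, they are those named Mrpl or Mrps, followed by a digit. By symbol, 49 belong to the large subunit (Mrpl) and 29 to the small subunit (Mrps). RNA was sequenced from hind leg muscle of male C57BL/6J mice that were 8 weeks old when the study began. The 3 mice of the control (Con) group were not trained, and the 3 mice of the exercise (EX) group ran on a treadmill for 6 weeks, in sessions of 60 min on 5 days of each week, and covered 22 km per mouse. EX tissue was taken 24 h after training ended. The muscle was perfused with saline and freed of fat between the muscles before a small piece was frozen, and which muscle of the leg each piece came from is not given in the sources used here.

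The mitochondrial ribosome translates the few proteins that mitochondrial DNA encodes, which are core parts of the respiratory complexes and of ATP synthase. Its proteins are encoded in the nucleus, made in the cytosol and imported, and they join rRNAs made inside the organelle, so assembly draws on both genomes. It is rich in protein compared with its bacterial relatives, because many mitochondrion-specific proteins were added to those inherited from bacteria. In skeletal muscle, where mitochondrial content follows endurance training, its supply is part of how new respiratory complexes are made.

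All 78 genes had a mean FPKM of 1 or more and so passed the filter on low values, which left 10883 genes for the test. FPKM and TPM are the authors' values per gene length and library, and CPM are the deposited estimated counts scaled by TMM normalization to a common library size. Total counts per library ranged from 13845362 to 16240431, and the lowest and highest counts of a member in a library were 115 and 3129. Differences are log2 fold changes, EX over Con, from the quasi-likelihood test of edgeR, adjusted by Benjamini-Hochberg over all genes tested, and a gene is called higher or lower at an adjusted p under 0.05. Each group held 3 libraries. The p-values set the difference between the groups against the spread within them, estimated with information shared across genes, and rest on these 6 samples only. In bulk muscle, fewer cells of a type and less RNA per cell cannot be told apart. Con replicate 1 stood apart from the other Con libraries: the chi-square of its counts per gene was 3.43 and 4.18 against Con replicates 2 and 3, and 1.78 to 2.36 for the other pairs within a group. Without it, 5 members (6.41%) were called higher and 0 lower, against 8.58% and 8.48% of all genes in that fit, with 64 of 78 fold changes above 0.

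The transcripts differed widely in level. Mean TPM over the 6 libraries ran from 4.74 for Mrps25 to 753 for Mrpl42, a ratio of 159, and 61 of the 78 members lay between 20 and 150 TPM. The median was 62.1 TPM in the large subunit and 64.6 TPM in the small subunit, so the typical levels of the subunits were close. Together the 78 members made up 0.727% of all TPM, and the 3 most abundant of them held 24.9% of that sum.

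The most abundant large subunit transcripts were Mrpl42 at 753 TPM, Mrpl33 at 427 TPM and Mrpl30 at 295 TPM, and the least abundant were Mrpl19 at 6.04 TPM, Mrpl17 at 9.93 TPM and Mrpl41 at 11.6 TPM. In the small subunit, Mrps21 at 630.0 TPM, Mrps18c at 157 TPM and Mrps36 at 154 TPM were the highest, and Mrps25 at 4.74 TPM, Mrps2 at 19.0 TPM and Mrps35 at 27.2 TPM the lowest. Mrps36 keeps a ribosomal symbol, but its product is known as a component of the 2-oxoglutarate dehydrogenase complex. Across the 78 genes, TPM fell with the length implied by each gene's count and FPKM (Spearman's rho -0.78, across genes that share the same libraries, so a description only). The implied length was under 200 bases for Mrpl52, Mrpl33, Mrps21 and Mrps18c, and it is the divisor behind their TPM.

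**Figure D1:**
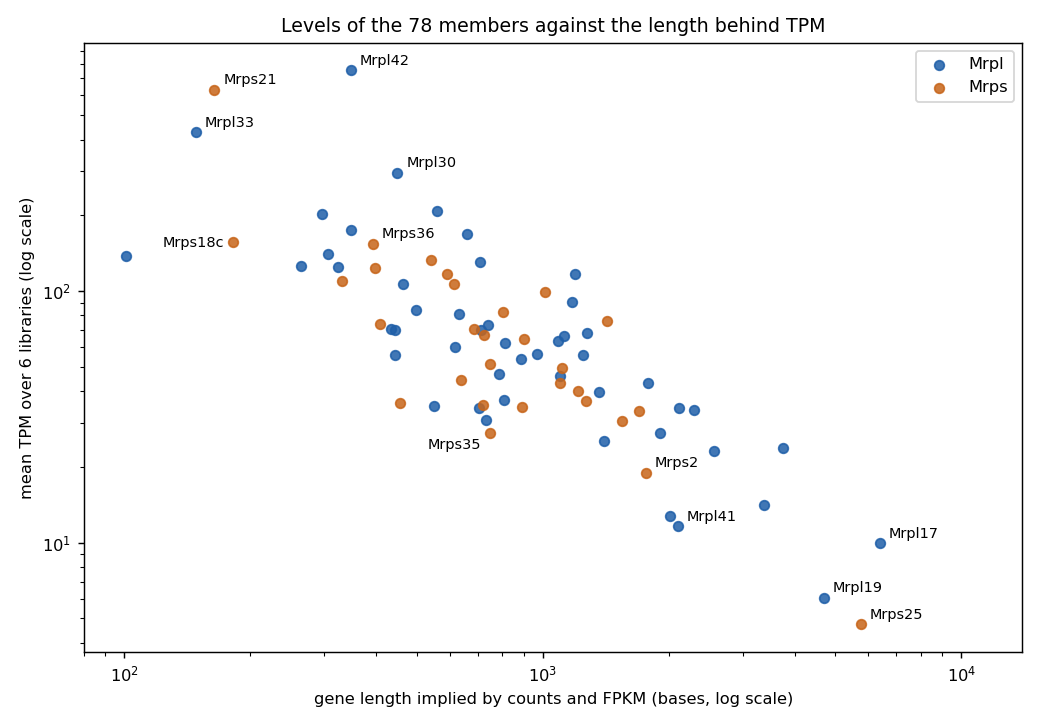
Mean TPM over the 6 libraries (vertical axis, log scale) against the gene length implied by counts and FPKM in bases (horizontal axis, log scale) for the 49 Mrpl and 29 Mrps genes, with the 3 highest and 3 lowest of each subunit labelled. Genes with a short implied length sit high and those with a long one sit low in both subunits, from Mrpl42 at 753 TPM down to Mrps25 at 4.74 TPM. The same length is the divisor behind TPM, so the axes are not independent.

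After training, 9 of the 78 members were called higher and 0 were called lower. That is 11.5% of the members, against 9.11% of all genes tested called higher, a share near the background. Of all genes tested, 8.80% were called lower. At an unadjusted p under 0.05, 20 members were higher and 2 were lower, against 15.5% and 15.1% of all genes tested. DESeq2 called 2 members higher and 0 lower, against 5.91% and 5.38% of all genes. The fold changes of 62 members were above 0 and those of 16 below, where 49.7% of all genes tested were above 0. On TPM, tested with limma, 30 members were above 0 and 48 below, with 1 called higher and 3 lower, against 3.12% and 15.5% of all genes under that fit. On this scale the median of all genes was -0.09, and the members' median was 0.08 above that of all genes, where it was 0.09 above on counts. With counts corrected for gene length, the members' median was only 0.038 above that of all genes, with 54 members above 0 and 24 below. The cause of these differences between scales was not tested.

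The changes were small for every member. The absolute log2 fold change was under 0.1 for 48 members, under 0.2 for 73 and under 0.3 for all 78, with a median standard error of 0.060. The 95% interval lay within 0.3 on either side of 0 for 73 members and within 0.5 for all 78. The median of the members was 0.08 on the log2 scale, against -0.00093 for all genes tested.

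**Figure D2:**
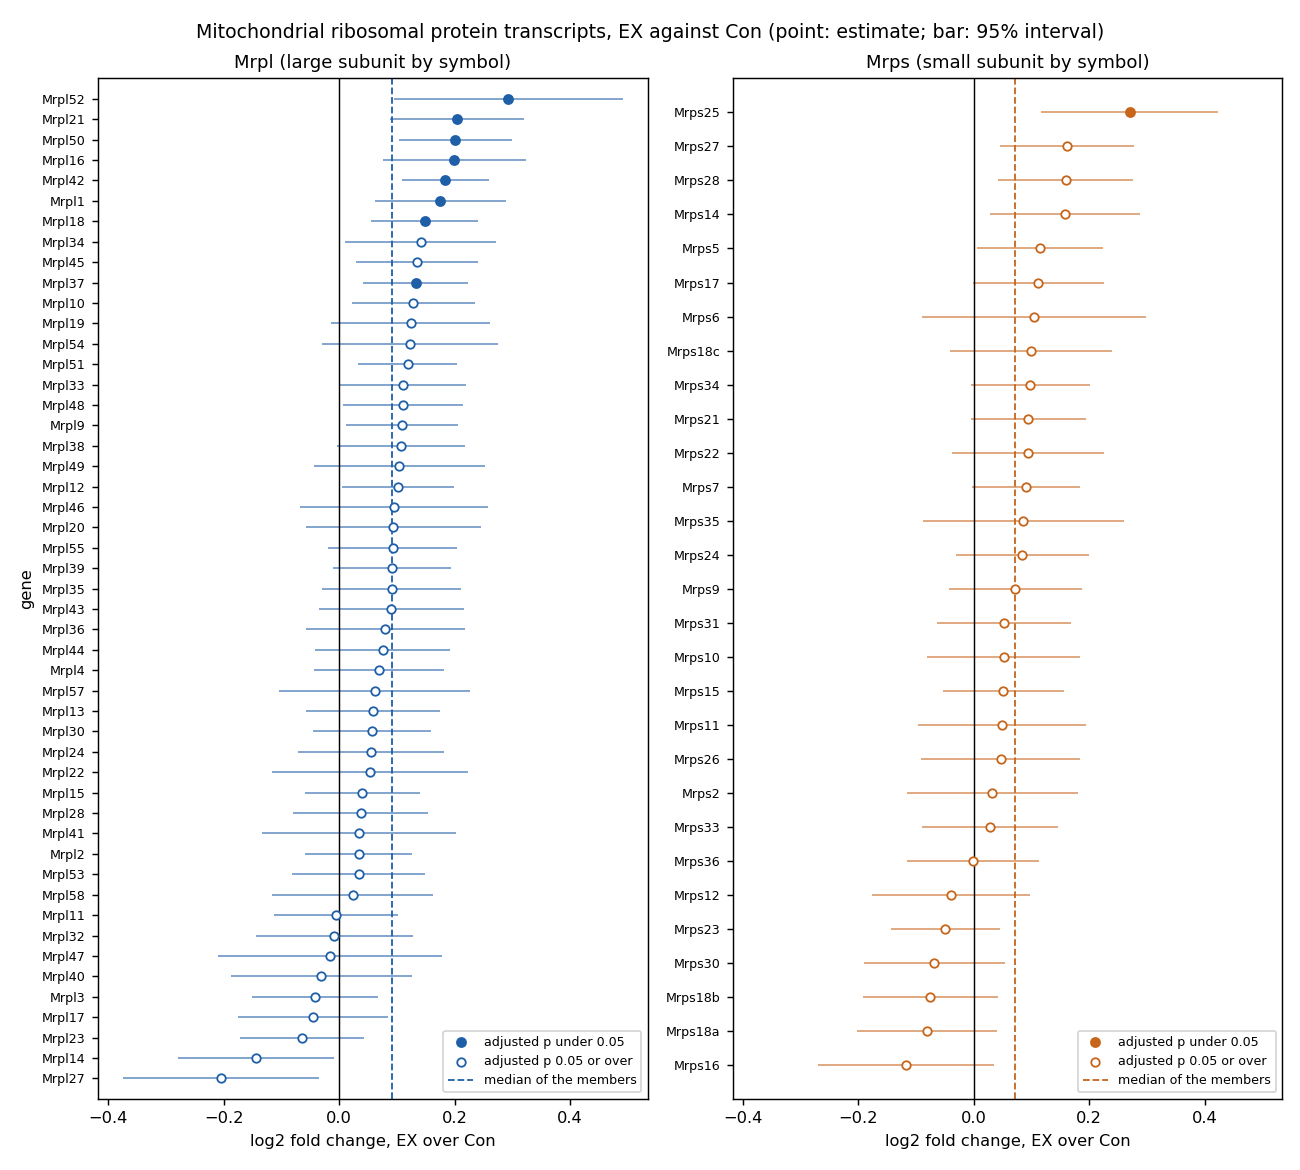
Log2 fold change, EX over Con, of each of the 49 Mrpl genes (left) and 29 Mrps genes (right) from edgeR on counts, with points as estimates, bars as 95% intervals and filled points for adjusted p under 0.05. Of the 49, 8 are filled, and of the 29, 1 (Mrps25), and 62 of the 78 points lie to the right of 0, whereas 30 do so on the TPM scale, which is not plotted and on which the median of all genes is -0.09.

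The large subunit held 8 of the 9 calls. Mrpl52 (mL52), a protein with no bacterial counterpart, was at 8.25, 8.84 and 9.09 CPM in the Con libraries and at 10.0, 11.0 and 11.1 CPM in the EX libraries. All EX values lay above all Con values, and the log2 fold change of 0.29 (SE 0.10, adjusted p = 0.0437) was the largest of the 78. It was also the least abundant of the called transcripts by count, and its call held under 3 of 16 alternative settings. Of the fits that left out 1 library, it passed only without EX replicate 1, and the adjusted p of the others ran from 0.0590 to 0.150.

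Mrpl21 (bL21m), which binds the large subunit rRNA, was at 27.5, 27.3 and 27.2 CPM in Con muscle and at 31.7, 30.9 and 31.8 CPM in EX muscle. The spread within each group was narrow and the groups did not overlap. The log2 fold change was 0.20 (SE 0.059, adjusted p = 0.0158), and the call held under 11 of the 16 alternatives. It was lost without Con replicate 2 (adjusted p = 0.0551) and without EX replicate 3 (adjusted p = 0.0613), with log2 fold changes of 0.20 in both fits.

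Mrpl42 (mL42), which has no bacterial counterpart, was the most abundant member per length, and its CPM were 174, 168 and 172 in Con libraries and 193, 199 and 192 in EX libraries. Its log2 fold change of 0.18 (SE 0.038) had the lowest adjusted p of the family, 0.0010. Mrpl50 (mL50), also without a bacterial counterpart, was at 48.1, 51.8 and 50.5 CPM in Con and at 59.5, 56.8 and 56.9 CPM in EX muscle. Its log2 fold change was 0.20 (SE 0.050, adjusted p = 0.0046). Neither gene's groups overlapped. These 2 calls held under 13 of 16 alternatives each, including every fit that left out 1 library, and were lost in the 3 limma fits on FPKM or TPM.

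Mrpl16 (uL16m) lies close to the peptidyl transferase centre, where peptide bonds form. It was at 29.8, 32.3 and 36.1 CPM in Con and at 36.5, 38.4 and 38.2 CPM in EX libraries, so that Con replicate 3 came close to the lowest EX library. The log2 fold change was 0.20 (SE 0.063, adjusted p = 0.0279), and it ranged from 0.14 without Con replicate 1 to 0.28 without Con replicate 3. The call held under 6 of the 16 alternatives and was lost with DESeq2 and with the correction for gene length, among others. It held where Con replicate 3 or EX replicate 1 was left out, and with another library left out the adjusted p ran from 0.0955 to 0.140. Mrpl1 (uL1m) forms the mobile L1 stalk beside the site from which spent tRNAs leave. Its CPM were 35.1, 34.4 and 32.2 in Con and 40.1, 37.2 and 37.5 in EX muscle, with a log2 fold change of 0.18 (SE 0.058, adjusted p = 0.0343), and it was the member called higher on TPM. Its TPM did not follow its CPM across libraries: EX replicate 2 had the highest TPM (29.6) but the lowest CPM of the EX libraries. Whether the length behind its TPM differed between libraries was not tested. The Mrpl1 call held under 8 of the 16 alternatives and was lost with DESeq2 and with the correction for gene length, among others. It held where Con replicate 1 or EX replicate 2 was left out, and with another library left out the adjusted p ran from 0.0635 to 0.156.

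Mrpl18 (uL18m), a protein of the central protuberance at the top of the large subunit, was at 75.5, 81.0 and 74.5 CPM in Con and at 81.9, 86.9 and 87.3 CPM in EX libraries. The gap between Con replicate 2 and EX replicate 1 was narrow, and the log2 fold change was 0.15 (SE 0.047, adjusted p = 0.0278). The Mrpl18 call held under 6 of the 16 alternatives and was lost with DESeq2 and with the correction for gene length, among others. Mrpl37 (mL37), a mitochondrion-specific protein, was at 68.2, 70.2 and 73.7 CPM in Con and at 75.7, 79.0 and 78.2 CPM in EX muscle. The groups of both genes did not overlap. For Mrpl37 the log2 fold change was 0.13 (SE 0.046, adjusted p = 0.0458), and its call held under 2 of the 16 alternatives. With 1 library left out, Mrpl18 was called only without Con replicate 2 or EX replicate 1 (otherwise adjusted p of 0.0574 to 0.131), and Mrpl37 only without Con replicate 3 (otherwise 0.0506 to 0.144).

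**Figure D3:**
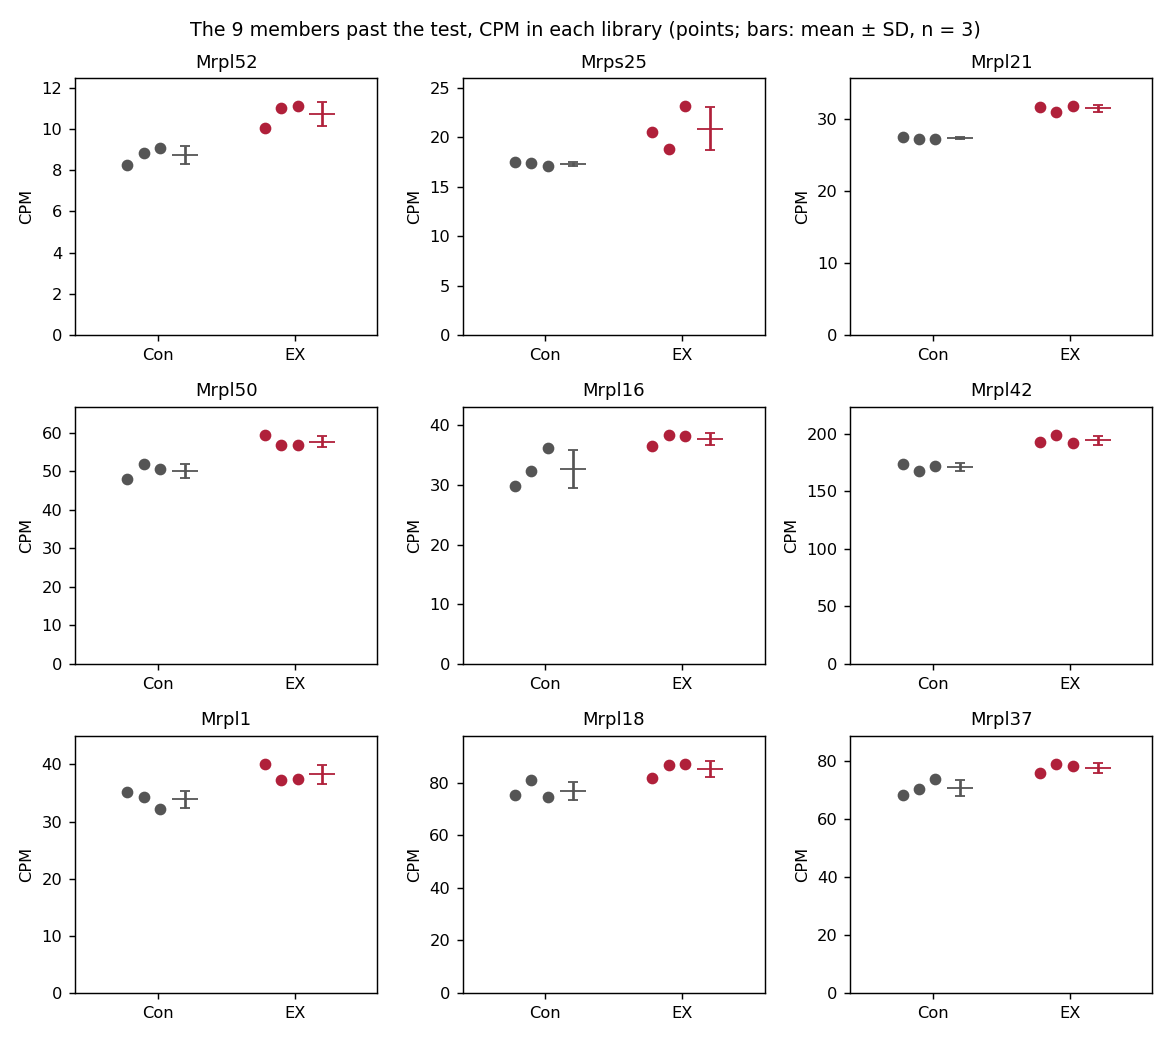
CPM in each library (vertical axes from 0) of the 9 members called higher, with Con libraries in grey, EX libraries in red, and the mean ± SD of 3 libraries beside them. In each panel the 3 EX points lie above the 3 Con points, from 8.25 to 11.1 CPM for Mrpl52 up to 168 to 199 CPM for Mrpl42.

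Among the members named Mrps, 1 was called. Mrps25 (mS25), which has no bacterial counterpart and was the least abundant member by TPM, was at 17.5, 17.4 and 17.1 CPM in Con and at 20.6, 18.8 and 23.2 CPM in EX libraries. The Con libraries were close together and the EX libraries were spread, with replicate 3 highest and no overlap with Con. The log2 fold change was 0.27 (SE 0.079, adjusted p = 0.0158), and the call held under 9 of the 15 alternatives that tested it. Without EX replicate 3 the log2 fold change was 0.19 (adjusted p = 0.156), and without Con replicate 2 it was 0.27 (adjusted p = 0.0505).

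The next 3 small subunit genes did not pass the test with all 6 libraries. Mrps27 (mS27), an RNA-binding pentatricopeptide repeat protein, was at 28.8, 32.0 and 32.0 CPM in Con and at 35.0, 34.2 and 34.8 CPM in EX libraries (log2 fold change 0.16, SE 0.060, adjusted p = 0.0600). Mrps28 (bS1m) was at 30.2, 33.0 and 34.0 CPM in Con and at 35.3, 36.0 and 37.5 CPM in EX libraries (log2 fold change 0.16, SE 0.059, adjusted p = 0.0637). For both, the lowest EX library lay above the highest Con library. Mrps14 (uS14m) was at 32.0, 41.2 and 39.1 CPM in Con, where replicate 1 stood apart, and at 41.4, 42.4 and 42.0 CPM in EX muscle (log2 fold change 0.16, SE 0.066, adjusted p = 0.103). Its log2 fold change was 0.059 without Con replicate 1 and 0.23 without Con replicate 2, where it was called (adjusted p = 0.0322). Mrps28 was called without Con replicate 3 (adjusted p = 0.0462).

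Counted over all members, the 3 EX values lay above the 3 Con values for 19 of 78 genes (24.4%), 13 in the large and 6 in the small subunit, and below them for 0. Of all genes tested, 16.8% had all EX values above and 16.9% all EX values below. Besides the 9 called members and the 3 small subunit genes given above, the 19 were Mrpl34, Mrpl10, Mrpl19, Mrpl51, Mrpl9, Mrps5 and Mrps22, which are listed because their values did not overlap. Their log2 fold changes ran from 0.09 for Mrps22 to 0.14 for Mrpl34.

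At the other end, Mrpl27 (bL27m), whose bacterial relative reaches into the peptidyl transferase centre, was at 26.5, 22.0 and 19.7 CPM in Con and at 21.3, 18.3 and 19.3 CPM in EX libraries. Con replicate 1 was the highest and the groups overlapped. The log2 fold change was -0.20 (SE 0.087, adjusted p = 0.104), and it was -0.09 without Con replicate 1 and -0.30 without Con replicate 3, where it was called lower (adjusted p = 0.0137). Mrpl14 (uL14m), the protein that the assembly factor Malsu1 binds on the large subunit, was at 34.5, 30.4 and 29.5 CPM in Con and at 28.9, 26.0 and 30.3 CPM in EX muscle, with a log2 fold change of -0.14 (SE 0.069, adjusted p = 0.155), or -0.08 without Con replicate 1 and -0.09 without EX replicate 2. Both were called lower when counts were corrected for gene length and when TPM were tested, and Mrpl23 was called lower on TPM as well. With the correction for length, 3 members were called higher and 2 lower, against 8.71% and 7.50% of all genes.

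The remaining members with the most negative values were Mrpl23 (uL23m, at the exit of the peptide tunnel) with -0.06 and Mrpl17 (bL17m) with -0.05 in the large subunit. In the small subunit by symbol they were Mrps16 (bS16m) with -0.12, Mrps18a with -0.08, Mrps18b (mS40) with -0.08 and Mrps30 with -0.07. Their standard errors lay between 0.055 and 0.078, the groups overlapped for all 6, and none passed the test. Without Con replicate 1, the values were -0.02 for Mrpl23, 0.06 for Mrpl17, -0.01 for Mrps16, -0.02 for Mrps18a, -0.05 for Mrps18b and -0.02 for Mrps30. Mrps18a and Mrps30 carry small subunit symbols, but structures of the mammalian ribosome place both in the large subunit, as mL66 and mL65.

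Members are given next by their place in the ribosome, and differences within these groups were not tested. In the stalk that recruits elongation factors, log2 fold changes were 0.13 for Mrpl10 and 0.10 for Mrpl12, and -0.01 for Mrpl11 at its base. Around the peptide exit tunnel they were 0.05 for Mrpl22, -0.06 for Mrpl23 and 0.06 for Mrpl24, and 0.13 (adjusted p = 0.0869) for Mrpl45, which ties the ribosome to the inner membrane. None of these 7 passed the test with all 6 libraries, and Mrpl45 was called higher without EX replicate 1.

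In the central protuberance, the called Mrpl18 stood beside Mrpl38 with 0.11, Mrpl48 with 0.11, Mrpl46 with 0.10 and Mrpl40 with -0.03. Near the peptidyl transferase centre, the called Mrpl16 stood beside Mrpl3 with -0.04 and Mrpl27 with -0.20. Mrps12, a protein of the decoding centre of the small subunit, had -0.04, and Mrpl58, a peptidyl-tRNA hydrolase that rescues stalled ribosomes, had 0.02. The genes named in these functional groups are a selection by role and not every member of a region. Apart from Mrpl16 and Mrpl18, none of those named was called. The other called members, Mrpl52 among them, were not assigned to these groups.

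The large and small subunits were set side by side. By symbol, 8 of 49 large subunit genes (16.3%) and 1 of 29 small subunit genes (3.45%) were called higher, against 9.11% of all genes tested, and the difference between these shares was not tested. With 1 library left out, the calls in the large and small subunit ran from 2 and 0 (without EX replicate 3) to 9 and 1 (without EX replicate 1). They were 4 and 1 without Con replicate 1 or EX replicate 2, 3 and 1 without Con replicate 2, 5 and 2 without Con replicate 3, and 2 and 0 with DESeq2. Of all genes, 6.13% (without EX replicate 3) to 8.58% (without Con replicate 1) were called higher with 1 library left out, and 5.91% with DESeq2. The median log2 fold change was 0.09 in the large and 0.07 in the small subunit, and 40 of 49 and 22 of 29 fold changes were above 0. On TPM, these medians were -0.0020 and -0.02, and that of all genes was -0.09. With the median of all genes subtracted, they were 0.09 and 0.07 both for counts and for TPM, and 0.05 and 0.01 when counts were corrected for gene length. With Mrps18a and Mrps30 counted as large and Mrps36 left out, the medians were 0.09 over 51 genes and 0.08 over 26 genes, with 8 and 1 called. All these counts leave out 5 mitochondrial ribosome proteins with other symbols. Of those 5, 2 were called higher, Chchd1 and Aurkaip1, both of the small subunit, so the split of calls depends on the choice by symbol.

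Summed over the 49 large subunit genes, CPM were 2032, 2031 and 2001 in Con libraries and 2090.3, 2191 and 2163 in EX libraries. Over the 29 small subunit genes they were 1016, 1015 and 985 in Con and 1037, 1038 and 1052 in EX libraries. On this scale every EX sum lay above every Con sum in both subunits. For all 78 members, the sum was 3027 ± 35.9 CPM in Con and 3189.9 ± 55.0 CPM in EX muscle (SD, n = 3 each), or 5.38% higher.

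Summed TPM gave another picture. For the large subunit it was 4716, 4699 and 4779 in Con and 4672, 4776 and 4698 in EX libraries, and the groups overlapped. For the small subunit it was 2603, 2609 and 2561 in Con and 2546, 2443 and 2534 in EX libraries, every EX value below every Con value. Over all 78 members, summed TPM was 7322 ± 16.1 in Con and 7223 ± 8.05 in EX muscle (SD, n = 3 each), a difference of -1.36%. Under the same change of scale, the median log2 fold change of all genes tested moved from -0.00093 for counts to -0.09 for TPM, and the share of counts held by the top 20 genes was 30.1% to 30.8% in Con and 31.7% to 32.5% in EX libraries, higher in every EX than in every Con library. The part of this share in the change of scale was not tested.

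**Figure D4:**
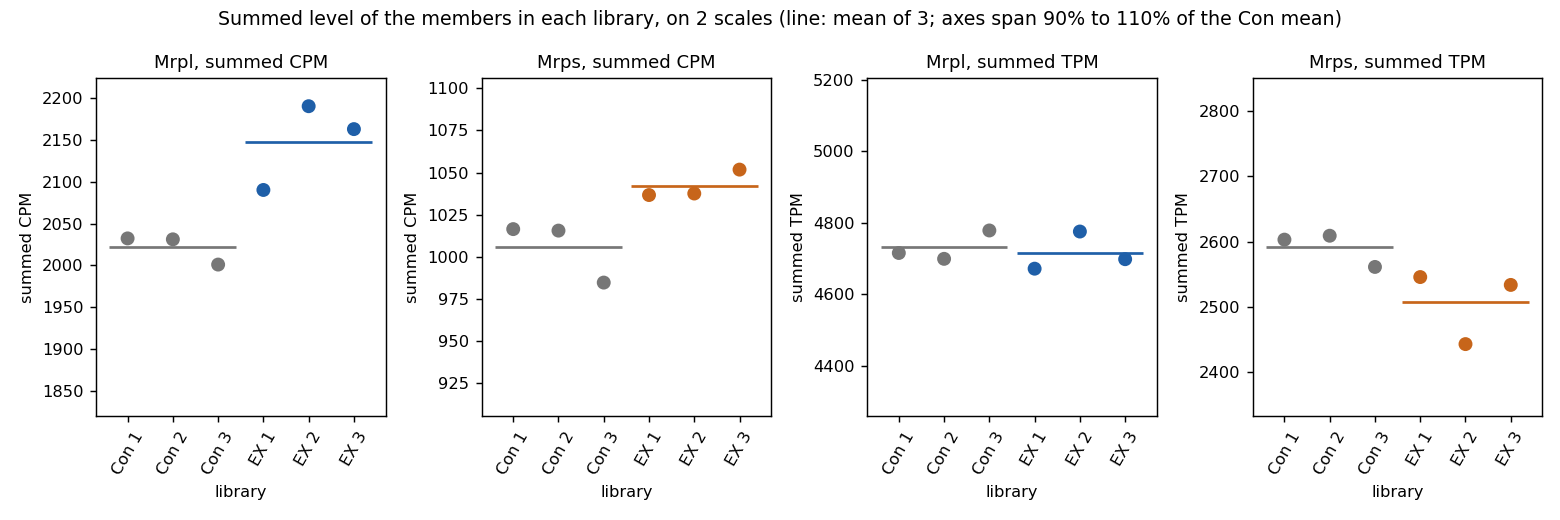
Summed CPM (left pair) and summed TPM (right pair) of the 49 Mrpl and 29 Mrps genes in each library, with lines at the mean of 3 libraries and vertical axes that span 90% to 110% of the Con mean. Summed CPM is higher in every EX library in both subunits, whereas summed TPM overlaps for Mrpl and is lower in every EX library for Mrps.

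The subunits were also set against each other within each library. The ratio of summed small to summed large subunit CPM by symbol was 0.497 ± 0.0046 in Con and 0.485 ± 0.011 in EX muscle (SD, n = 3 each), and the libraries overlapped, with EX replicate 2 lowest at 0.474. With each gene placed as in structures, it was 0.417 ± 0.0030 in Con and 0.413 ± 0.0096 in EX muscle, again with overlap.

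Evolutionary origin was set against the change. Of the 46 members with a bacterial counterpart, 4 were called higher (Mrpl1, Mrpl16, Mrpl18 and Mrpl21) which is 8.70%, and the median log2 fold change was 0.08. Of the 31 members without one, 5 were called (Mrpl37, Mrpl42, Mrpl50, Mrpl52 and Mrps25), which is 16.1%, and the median was 0.09. Of all genes tested, 9.11% were called higher, and the difference between the shares of the 46 and the 31 was not tested. The calls with and without a counterpart were 2 and 0 in both FPKM fits of limma, 1 and 0 on TPM, and 0 and 2 with DESeq2 or without EX replicate 3. They ran up to 4 and 6 without EX replicate 1. Of all genes, 3.78% were called higher in each FPKM fit, 3.12% on TPM and 5.91% with DESeq2. The share was 6.13% without EX replicate 3 and 7.53% without EX replicate 1. In the small subunit as placed in structures, the order of the medians was the other way, at 0.09 for 16 genes with a counterpart and 0.07 for 10 without. Mrps36 belongs to neither set. These medians are from counts, and on TPM the median was -0.01 for all 78 members and -0.09 for all genes tested.

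The windows around the transcription start are shown because a family spread over the genome might share sequence there. RefSeq windows of 250 bases before to 50 after a start, on GRCm38.p6, were found for 69 of the 78 members (75 windows), including all 9 called. Both strands were searched for CCGGAAGT, the core bound by ETS factors such as GABP (NRF2), for GCGCANGCG, bound by NRF1, and for AAGATGGC, bound by YY1. GABP, NRF1 and YY1 are known regulators of nuclear genes for mitochondrial proteins. The ETS letters were in 12 member windows (16.0%) and in 3.89% of all 32851 windows, and the YY1 letters in 12 (16.0%) against 2.75%. The NRF1 letters were in 16 (21.3%) against 6.25%. All windows include those of genes not tested here, and no set matched for expression or base content was compared. Whether these shares are particular to the family was therefore not tested. A match is a description of letters and not of a bound site.

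Among the 9 windows of the called members, 2 held the ETS letters (Mrpl18 and Mrpl52), 2 the YY1 letters (Mrpl37 and Mrpl42) and 0 the NRF1 letters. By subunit, NRF1 letters were in 12 of 48 large and 4 of 27 small subunit windows, ETS letters in 8 and 4, and YY1 letters in 6 and 6. In all, 37 members held at least 1 of these motifs, and 3 held 2 or more kinds.

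The 250 bases before the start are printed 5′ to 3′ on the gene's strand for the 3 called members with the largest change, then for Mrpl18, the called member with a motif wholly before its start, and for Mrpl32, which has 2 kinds of motif there. Capitals mark letters that match a motif on either strand, and where matches overlap the capitals run together.
Mrpl52, GRCm38.p6 chr14:54426659-54426908, plus strand: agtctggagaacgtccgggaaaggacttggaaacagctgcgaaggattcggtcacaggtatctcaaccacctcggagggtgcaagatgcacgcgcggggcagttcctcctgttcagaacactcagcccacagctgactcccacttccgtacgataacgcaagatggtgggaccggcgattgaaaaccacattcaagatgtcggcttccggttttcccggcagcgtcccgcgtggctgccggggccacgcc
Mrps25, GRCm38.p6 chr6:92184024-92184273, minus strand: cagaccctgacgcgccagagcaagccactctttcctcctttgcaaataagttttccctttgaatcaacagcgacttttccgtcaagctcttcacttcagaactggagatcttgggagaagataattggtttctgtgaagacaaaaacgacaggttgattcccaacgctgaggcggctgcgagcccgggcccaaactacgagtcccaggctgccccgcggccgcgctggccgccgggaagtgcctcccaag
Mrpl21, GRCm38.p6 chr19:3282792-3283041, plus strand: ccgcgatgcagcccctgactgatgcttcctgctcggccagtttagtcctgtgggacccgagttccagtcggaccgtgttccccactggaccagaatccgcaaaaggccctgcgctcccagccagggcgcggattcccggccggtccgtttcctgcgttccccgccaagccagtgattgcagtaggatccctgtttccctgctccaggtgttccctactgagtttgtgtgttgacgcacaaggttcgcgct
Mrpl18, GRCm38.p6 chr17:12916092-12916341, minus strand: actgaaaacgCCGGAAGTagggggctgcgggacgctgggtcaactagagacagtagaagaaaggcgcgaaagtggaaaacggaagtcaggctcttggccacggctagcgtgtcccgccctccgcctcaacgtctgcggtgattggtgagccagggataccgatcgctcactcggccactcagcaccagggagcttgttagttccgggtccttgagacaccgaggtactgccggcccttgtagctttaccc
Mrpl32, GRCm38.p6 chr13:14613038-14613287, minus strand: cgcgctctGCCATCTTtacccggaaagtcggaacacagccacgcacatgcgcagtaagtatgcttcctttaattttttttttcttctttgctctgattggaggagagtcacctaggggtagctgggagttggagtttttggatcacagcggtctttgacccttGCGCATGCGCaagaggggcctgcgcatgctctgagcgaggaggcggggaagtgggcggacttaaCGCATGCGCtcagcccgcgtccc
The first 3 windows hold no match before the start, and in Mrpl52 the ETS letters begin 2 bases into the transcript. In Mrpl18, the ETS letters begin 240 bases before the start. Mrpl32 (bL32m) has YY1 letters from 242 bases and NRF1 letters from 87 and 23 bases before its start. Its log2 fold change was -0.01 (SE 0.069, adjusted p = 0.951), the CPM being 22.2, 22.1 and 20.8 in Con and 22.5, 20.3 and 21.9 in EX libraries.

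Other genes of mitochondrial translation were described from lists set by function, whose calls are read against the 9.11% of all genes tested called higher and 8.80% called lower. Of 5 mitochondrial ribosome proteins with other symbols, Chchd1 (0.15, adjusted p = 0.0481) and Aurkaip1 (0.20, adjusted p = 0.0102), both of the small subunit, were called higher, and Dap3, Ptcd3 and Gadd45gip1 lay between -0.04 and 0.03. Of 12 translation factors tested, 3 (25.0%) were called higher and 0 lower. They were the elongation factors Tufm (0.15, adjusted p = 0.0150) and Gfm1 (0.13, adjusted p = 0.0435), and Taco1, the activator of cytochrome c oxidase subunit I synthesis (0.21, adjusted p = 0.0020).

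Of 26 genes for ribosome assembly and rRNA modification, 1 (3.85%, below the share of all genes) was called higher, the rRNA methyltransferase Mrm1 (0.32, adjusted p = 0.0314), with a median of 0.03. Of the 20 mitochondrial aminoacyl-tRNA synthetases and related enzymes tested, 0 were called (1 had an unadjusted p under 0.05 in edgeR), with a median of 0.09. Of 19 genes for mitochondrial DNA transcription and RNA stability, 2 (a share near that of all genes) were called higher, Mterf2 (0.26, adjusted p = 0.0495) and Prorp (0.28, adjusted p = 0.0282), with a median of -0.02. The table holds no mitochondrially encoded genes, so neither the rRNAs nor the products of this ribosome were analysed here.

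Of 79 cytosolic ribosomal protein genes tested, 38 (48.1%) were called higher and 0 lower, against 9.11% and 8.80% of all genes, with a median of 0.13, and 75 were above 0. Of 82 nuclear genes for respiratory complex and ATP synthase subunits, 12 (14.6%) were called higher and 1 (1.22%) lower, with a median of 0.05. Whether these lists differ from the mitochondrial ribosomal proteins was not tested. Summed TPM was 59817 in Con and 60792 in EX muscle for the cytosolic list and 88682 and 84955 for the respiratory list, a log2 ratio of 0.02 and -0.06, where the median of all genes on TPM was -0.09.

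**Figure D5:**
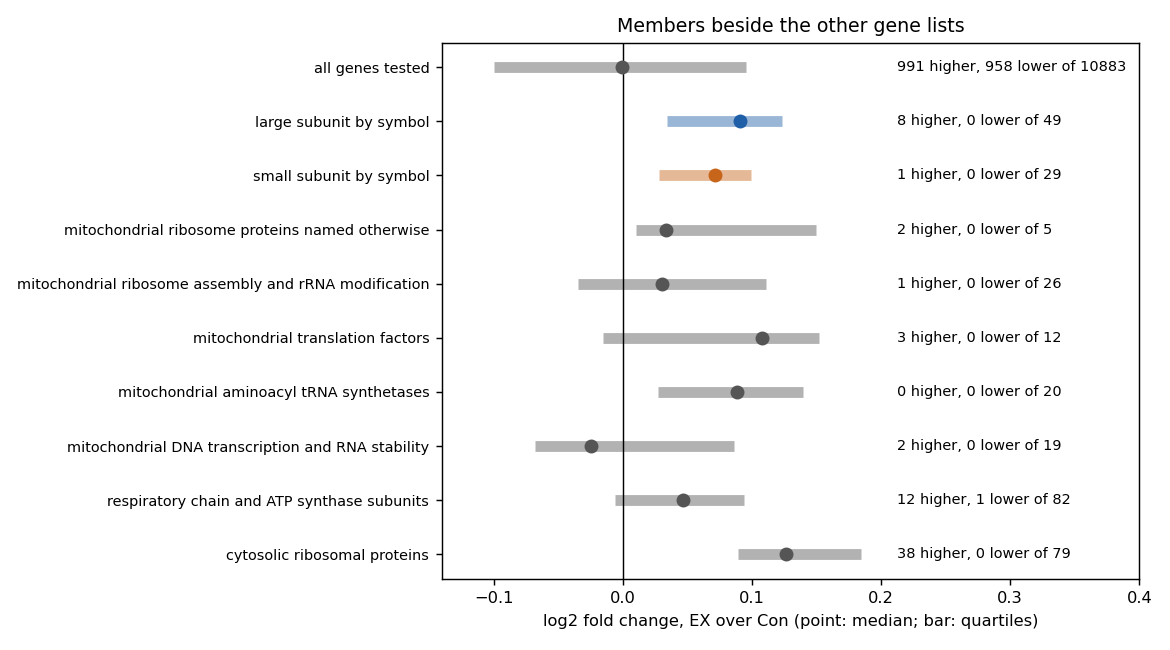
Median (point) and quartiles (bar) of the log2 fold change, EX over Con, from edgeR on counts, for the members by subunit, other gene lists and all 10883 genes tested, with the number called in each direction. The large and small subunit medians are 0.09 and 0.07, between respiratory chain subunits at 0.05 and cytosolic ribosomal proteins at 0.13, and on TPM, which is not plotted, they are -0.0020 and -0.02 where the median of all genes is -0.09.

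Markers of cell and fibre types moved between the groups as well. The 10 fast fibre and general muscle markers were abundant in all libraries, with 6 called higher and 1 lower and sums of 176468 to 185461 CPM in Con and 191202 to 202014 CPM in EX muscle. All 8 slow fibre markers were called higher, with sums of 142 to 149 CPM in Con and 414 to 444 CPM in EX muscle. Atp2a2, Tpm3 and Myl3 carried most of the Con sum, and the slow myosin gene Myh7 was at 1.0 CPM in Con and 102 CPM in EX muscle (log2 fold change 6.65), with Tnni1, Tnnc1 and Tnnt1 at 4.84, 4.84 and 4.26. Since the muscle of origin is not given, a different muscle and training cannot be told apart for these values. Macrophage markers were higher for 6 of 7 tested, with sums over 8 genes of 40.5 to 44.8 CPM in Con and 74.8 to 82.0 CPM in EX muscle, and adipocyte markers for 5 of 6, with sums of 639 to 662 and 743 to 772 CPM. Plin4 (log2 fold change 0.30) and Fabp4 (-0.09, adjusted p = 0.112), at 405 and 229 CPM in Con muscle, carried most of the adipocyte sum. Adipoq, Cidec, Cfd and Retn, between 0.715 and 10.2 CPM in Con muscle, had log2 fold changes from 1.19 (Adipoq) to 1.55 (Retn). Of 8 endothelial markers, 4 were called lower and 1 higher, with sums of 795 to 814 and 691 to 715 CPM. No marker was at 0 in all libraries. The part of these shifts in the values of the mitochondrial ribosomal proteins was not tested.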

How the data were processed

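RNA from hind leg muscle of 3 Con and 3 EX mice was sequenced by the authors (150-base paired ends, DNBseq), and low-quality reads were removed. The paper names HISAT, the GRCm39 assembly and DESeq, whereas the submitters' processing notes list cutadapt, featureCounts, MultiQC and GRCm38.p6, without versions. The deposited table gives no positions, so the difference could not be settled from it. Replicates were not pooled.

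The authors deposited estimated counts, not normalized, for each gene and library. The authors also deposited FPKM and TPM values, which are scaled by gene length and library. The 6 columns of group means were not used. Between 4.18% and 4.44% of the estimated counts in a library were not whole. Among the members this held for Mrpl15 and Mrpl39. Reads shared with near-identical copies cannot be told apart in such estimates.

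Estimated counts were rounded and fitted with edgeR 4.0.16 (TMM, glmQLFit, glmQLFTest) in R 4.3.3, 3 EX against 3 Con libraries without covariates, for the 10883 of 16759 genes whose mean FPKM was 1 or more, and p-values were adjusted over all of them. The common biological coefficient of variation was 0.0328. CPM are estimated counts over the TMM-scaled total of the genes tested. Gene length was taken as implied by count, FPKM and library total. Alternatives were RLE factors, totals without the 20 most abundant genes, DESeq2 1.42.0, limma 3.58.1 on log2(FPKM + 0.1), log2(FPKM + 1) and log2(TPM + 0.1), other filters, a length offset, a replicate block, and each library left out in turn. Fold changes of limma are on the log2(value + pseudocount) scale, where low genes appear to change less. The fits were tested on simulated data.

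The members, gene lists and tests were chosen with earlier results of these data known. Named in full were all called members, the 4 highest and 4 lowest fold changes in each subunit, and the 3 highest and lowest TPM. Members named for their role, for motifs or for values that did not overlap lie outside that rule. Subunit placement in structures, bacterial counterparts and lists are textbook assignments. Promoter windows are from RefSeq on GRCm38.p6. No batch of preparation or sequencing is given in the labels, and no pair of libraries within a group was close enough to be the same library under 2 names.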

Additional observations from a re-analysis of the deposited data

How the results depend on the processing

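The count of 9 members called higher became 4 when scaled to totals without the 20 most abundant genes, 2 with DESeq2, 2 with limma on log2(FPKM + 0.1), 2 on log2(FPKM + 1), 1 on log2(TPM + 0.1), 5 of 76 tested with a mean FPKM of at least 5 (6.58%, against 9.79% of all genes called higher and 10.7% lower), where the filter left out Mrpl19 and the called Mrps25, and 3 with the length offset. The count of 0 called lower became 3 on log2(TPM + 0.1) and 2 with the length offset. Leaving out 1 library gave 2 to 10 higher and 0 to 1 lower, with 5, 4, 7, 10, 5 and 2 higher without Con replicates 1, 2, 3 and EX replicates 1, 2, 3. These are 6.41%, 5.13%, 8.97%, 12.8%, 6.41% and 2.56% of the members, against 8.58%, 6.97%, 8.21%, 7.53%, 7.07% and 6.13% of all genes. Mrpl27 was called lower without Con replicate 3.

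The large subunit median of 0.09 became 0.033 and 0.031 on the FPKM scales, -0.0020 on TPM and 0.046 with the length offset. The small subunit median of 0.07 became 0.047 without the 20 most abundant genes, 0.017 and 0.016 on the FPKM scales, -0.018 on TPM, 0.048 with a mean FPKM of at least 5 and 0.013 with the length offset. The cause was not tested. Over all genes tested, 991 were called higher and 958 lower, which became 772 and 1259 without the 20 most abundant genes, 411 and 1037 on log2(FPKM + 0.1), 411 and 1032 on log2(FPKM + 1) and 340 and 1684 on TPM. The sign of Mrpl17 turned with the length offset (0.018) and without Con replicate 1 (0.057), where leaving out 1 library gave -0.11 to 0.057, and that of Mrps18b without EX replicate 1 (0.0029), with a range of -0.12 to 0.0029. The 9 called members kept their sign under every alternative run.

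With the replicate block, 8 members (10.3%) were called higher and 0 lower, against 8.35% and 8.02% of all genes, and Mrpl37 lost its call. The numbers gave no sign of pairing: the deviations of same-numbered libraries correlated at -0.08, -0.05 and -0.07 across genes. Counts of 115 to 3129 a library limit the precision of the rarest members.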
